A study of Drosophila melanogaster with 6 samples.

Results

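The genes described here encode immune peptides, pathogen recognition proteins and signalling proteins of the humoral defence of Drosophila melanogaster. They were taken by their symbols in the array's platform annotation, as 40 named genes plus every gene whose symbol starts with PGRP-. Of the 40 named genes, 27 had a probe set annotated to them alone, and 7 PGRP genes came to these, so that 34 of 11983 gene rows are described. These are 11 antimicrobial peptide genes, 1 Turandot stress peptide gene, 2 thioester protein genes, 10 recognition genes and 10 signalling genes. AttA, AttB, AttC, DptA, CecA1, CecA2, CecC, Dro, TotA, TotM, Tep1, Tep2 and GNBP1 are not analysed here.

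The series asks which genes depend on MSL2, a subunit of the complex that raises transcription of the single male X chromosome. Whole male larvae of the last instar were measured on 6 Affymetrix Drosophila Genome 2.0 arrays. The 3 mutant arrays hold larvae of the genotype yw/Yy+;msl21/msl21, and the 3 control arrays larvae of the genotype yw/Yy+;msl21/+, so the controls also carry 1 copy of the EMS-induced msl21 allele and both groups share the yw X and the Yy+ chromosome. Each array holds an independent RNA preparation from a pool of at least 50 larvae, and the pool is the replicate. The values are log2 expression values after RMA, 1 unit being a doubling, and a difference is always mutant minus control.

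Insects answer microbes without antibodies. In flies, fungi and many Gram-positive bacteria act through the Toll pathway, in which a cleaved ligand, Spätzle, binds the receptor Toll and releases NF-κB factors from their inhibitor Cactus. Peptidoglycan of Gram-negative bacteria acts through receptors of the PGRP family and the Imd pathway, which activates the NF-κB factor Relish. Both pathways switch on antimicrobial peptide genes, mainly in the larval fat body, while the gut and other epithelia use the Imd branch locally and hold it in check with PGRP amidases that cut peptidoglycan.

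The arrays of the mutant group were less alike than those of the control group, which bears on every value below. The median SD within a group over all gene rows was 0.284 in mutant arrays, against 0.148 in control arrays. Over 10 salivary glue markers, which follow larval age, the median deviation of each mutant array from the control mean was -4.85, 0.52 and 0.06 in mutant replicates 1, 2 and 3. In mutant replicate 1, 7 of the 10 lay over 1 unit from the control mean. The rest, ng1, ng2 and ng3, were 11.59, 11.87 and 12.18 there, against control means of 11.81, 11.70 and 12.51. In mutant replicate 2, 4 of the 10 lay over 1 unit from the control mean, and in mutant replicate 3, 1 of the 10. In mutant replicate 2, Sgs1 at 10.57 and Eig71Ee at 13.49 were above their control means of 8.63 and 11.08. There ng1 at 10.79 and ng2 at 10.50 were below theirs. The mean difference between 3' and 5' control probe sets, a sign of RNA integrity, was 2.19, 1.33 and 1.88 in mutant replicates 1, 2 and 3, against 1.80 to 1.95 in the controls. All 5 measured fat body markers were on average in the brightest 25% of gene rows, but some were low in mutant replicate 1. The log2 of their summed signal was 14.35, 15.74 and 15.30 in mutant replicates 1, 2 and 3, against 15.00 to 15.36 in control replicates. Of the 5, 3 lay over 1 unit from the control mean in mutant replicate 1 (Lsp2, Fbp1 and Fbp2). Fbp1 was 5.27 there, against 12.04 to 12.56 in control replicates. FASN1 was 13.04 in mutant replicate 1, against 12.22 to 12.65 in control replicates, and apolpp 12.97, against 13.09 to 13.15. In mutant replicate 2, 2 of the 5 lay over 1 unit from the control mean. The part of fat body RNA in the peptide values below was not tested. The mRNA of msl-2 itself was 5.39, 5.21 and 4.73 in mutant replicates 1, 2 and 3, against 5.18, 5.14 and 4.86 in control replicates 1, 2 and 3, with no detected difference (0.05, SE 0.21, limma adjusted p = 0.96). As the allele is a chemically induced mutation, this level is no check of the genotype.

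None of the 34 immune genes passed the test between genotypes. By limma over all 11983 gene rows, 0 members were higher and 0 lower at an adjusted p of 0.05, where 2 gene rows in all (0.0167%) passed. At an unadjusted p under 0.05, 4 members were higher (GNBP2, PGRP-SB2, PGRP-LB and Rel) and 3 lower (lectin-24A, TotC and PGRP-SB1), beside 3.86% higher and 4.66% lower of all gene rows. The 3 mutant values lay above all 3 control values in 8 members, beside 6.59% of all gene rows. They lay below all control values in 3 members, beside 7.29% of all gene rows. Over the 34 members, 21 differences were above 0 and the median was 0.11, with a median of 0.00 over all gene rows.

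**Figure D1:**
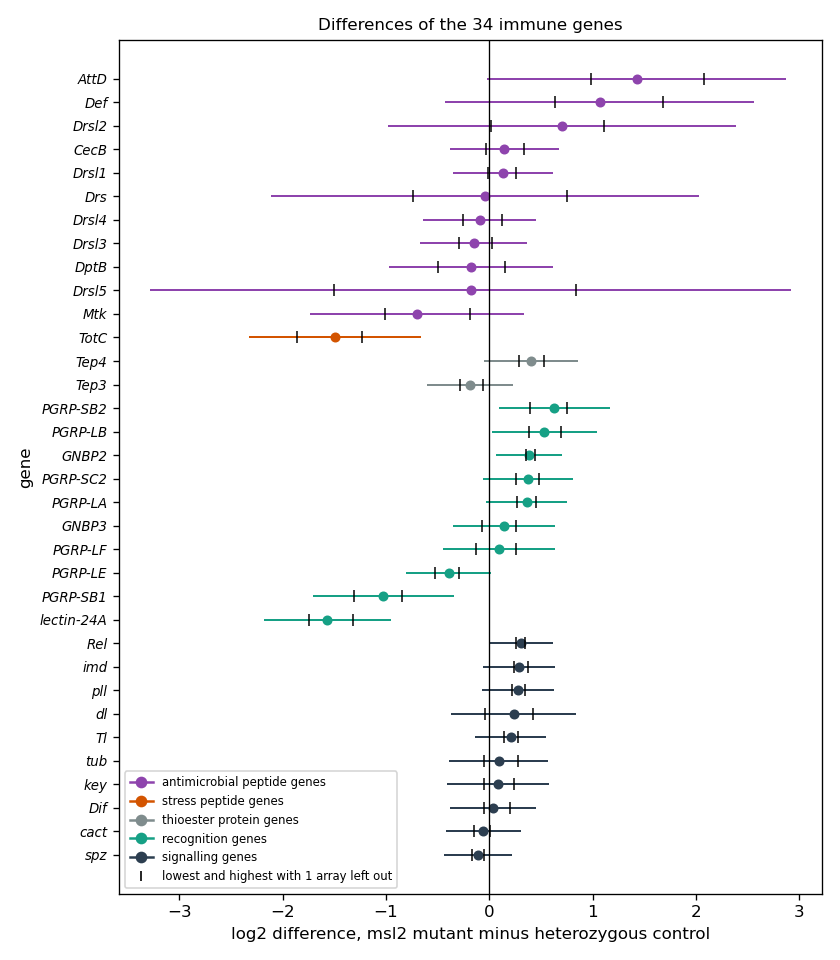
Log2 difference (x axis, mutant minus control) of each of the 34 immune genes (y axis), coloured by role; lines are 95% confidence intervals from limma and black ticks the lowest and highest difference with 1 array left out (n = 3 arrays per genotype). The peptide genes AttD, Drs, Drsl2, Drsl5 and Def have the widest intervals, lectin-24A, TotC and PGRP-SB1 lie below 0, and the signalling genes lie between -0.11 and 0.31.

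Among the antimicrobial peptide genes the arrays of 1 genotype differed from each other by more than the genotypes did. Of the 11 measured, 5 had a difference above 0 and 6 below, the median was -0.04, and no gene had groups without overlap. The genes AttD, Drs, Drsl2, Drsl5 and Def each spanned over 2 log2 units across the 6 arrays, as did TotC and lectin-24A, so that 7 of 34 members did so beside 4.16% of all gene rows. Because whole larvae were used, fewer cells of an expressing type and less RNA per cell cannot be told apart in any of these values.

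Drs encodes Drosomycin, an antifungal peptide and the usual readout of the Toll pathway. Its level was 9.07, 11.64 and 10.04 in mutant replicates 1, 2 and 3, against 9.12, 11.87 and 9.88 in control replicates 1, 2 and 3. One array of each genotype, replicate 2 in both cases, was thus over 2 units above the lowest of its group, and the groups covered nearly the same range. The means were 10.25 ± 1.30 in the mutants and 10.29 ± 1.42 in the controls (SD, n = 3 each), and the difference was -0.04 (SE 0.86, 95% interval -2.10 to 2.02, limma adjusted p = 0.993). The interval is wide enough to hold a change of 4-fold in either direction, so that the absence of a call does not show equal expression.

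The Drosomycin-like genes lie on 3L, as does Drs, and in the RefSeq gene order Drsl2, Drsl3, Drsl4 and Drsl5 follow each other directly. Drsl5 was 5.54, 10.22 and 6.98 in mutant replicates 1, 2 and 3, against 8.63, 8.79 and 5.86 in control replicates 1, 2 and 3. This was the widest range of any member, 4.67 units, and each genotype had both low and high arrays. Drsl2 was 6.46, 8.39 and 6.97 in mutant replicates 1, 2 and 3, against 7.17, 7.35 and 5.19 in control replicates 1, 2 and 3. Drsl2 and Drsl5 had the same lowest array in the mutants (replicate 1) and in the controls (replicate 3), and the same highest array (replicate 2 of each genotype). Their differences were 0.70 (SE 0.70, limma adjusted p = 0.783) for Drsl2 and -0.18 (SE 1.30, limma adjusted p = 0.978) for Drsl5. The genes between them were steadier, with ranges over the 6 arrays of 0.75 for Drsl3 and 0.74 for Drsl4, and differences of -0.15 and -0.09. Drsl1, at 0.13, and Drsl3 were among the dimmest 25% of gene rows, where RMA compresses differences.

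AttD encodes an attacin, a glycine-rich peptide family active against Gram-negative bacteria. Its level was 8.92, 6.72 and 8.46 in mutant replicates 1, 2 and 3, against 5.86, 6.87 and 7.09 in control replicates 1, 2 and 3. Mutant replicates 1 and 3 lay above every control, while mutant replicate 2 lay within the control range. The means were 8.03 ± 1.16 in the mutants and 6.61 ± 0.65 in the controls (SD, n = 3 each), and the difference of 1.42 (SE 0.60, 95% interval -0.02 to 2.86) had a limma adjusted p of 0.586. Without mutant replicate 2 the difference was 2.08 with a limma adjusted p of 0.0273, in a fit where 2.80% of all gene rows were called higher and 7.91% lower.

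Def encodes Defensin, which acts mainly on Gram-positive bacteria. It was 7.89, 5.83 and 7.43 in mutant replicates 1, 2 and 3, against 6.82, 6.0 and 5.12 in control replicates 1, 2 and 3. As with AttD, mutant replicates 1 and 3 were above every control and mutant replicate 2 was within the control range. The difference was 1.07 (SE 0.62, limma adjusted p = 0.641), and without mutant replicate 2 it was 1.68 (limma adjusted p = 0.068). The other peptide genes did not share this pattern. Mtk, which encodes the proline-rich antifungal peptide Metchnikowin, had a difference of -0.70 (SE 0.43, limma adjusted p = 0.651), with 7.79 to 8.20 in the mutants and 8.02 to 9.67 in the controls, and control replicate 3 held the highest value. DptB, a diptericin gene that serves as a readout of the Imd pathway, was 7.07 to 8.37 in mutant arrays, against 7.74 to 8.18 in control arrays, with a difference of -0.17 (SE 0.33, limma adjusted p = 0.906). CecB, a cecropin gene, differed by 0.14 (SE 0.22, limma adjusted p = 0.875).

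**Figure D2:**
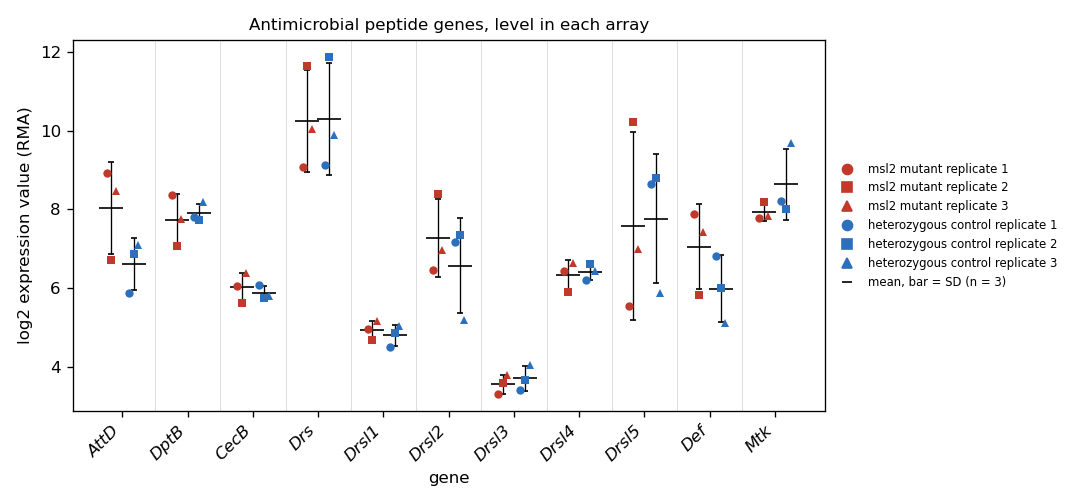
Log2 expression value (y axis) of the 11 antimicrobial peptide genes (x axis) in each array, mutant arrays in red left of control arrays in blue; marker shapes give the replicate number, and black bars the mean and SD (n = 3). Drs and Drsl5 spread over several units within each genotype, and for AttD and Def mutant replicates 1 and 3 lie above the controls while mutant replicate 2 does not.

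Other inducible immune effector genes had no shift of their own as a list. Of 20 measured, 10 differences were above 0 and 10 below (median -0.01), 0 passed at an adjusted p of 0.05, and 13 were among the dimmest 25% of gene rows. Tsf1, an iron-binding transferrin gene on the X, was 9.57, 10.06 and 9.49 in mutant replicates 1, 2 and 3, against 9.36, 8.96 and 8.88 in control replicates 1, 2 and 3 (difference 0.64, SE 0.21, limma adjusted p = 0.518). BomS4, of the Bomanin family of short Toll-dependent peptides, was 4.25 to 5.10 in mutant arrays, against 5.37 to 5.58 in control arrays (difference -0.72, SE 0.24, limma adjusted p = 0.508). BomS2 and BomT2, of the same family and chosen after their values were seen, were both highest in control replicate 2. BomS2 was next highest in mutant replicate 1. BomS2 was 6.28, 3.90 and 4.66 in mutant replicates 1, 2 and 3, against 4.31, 8.33 and 4.52 in control replicates 1, 2 and 3. BomT2 was 3.66, 5.10 and 4.11 in mutant replicates 1, 2 and 3, against 4.07, 7.90 and 4.40 in control replicates 1, 2 and 3. Control replicate 2, where both were highest, also had the highest Drs value, while mutant replicate 2, with a like Drs value, had BomS2 at 3.90 and BomT2 at 5.10.

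TotC had the second largest negative difference among the members, after lectin-24A. It encodes a Turandot peptide, secreted under stress and induced through the JAK-STAT pathway. Its level was 5.94, 5.58 and 6.20 in mutant replicates 1, 2 and 3, against 7.91, 7.63 and 6.66 in control replicates 1, 2 and 3. The groups did not overlap, with 0.45 between the nearest values, and the means were 5.91 ± 0.31 in the mutants and 7.40 ± 0.66 in the controls (SD, n = 3 each). The difference was -1.49 (SE 0.34, 95% interval -2.31 to -0.67), a mutant level of 0.356 times the control level, with a limma adjusted p of 0.339. The 2 thioester protein genes, whose products resemble complement and vertebrate alpha-2-macroglobulins, had overlapping groups. Tep4 differed by 0.40 (SE 0.19, limma adjusted p = 0.601) and Tep3 by -0.18 (SE 0.17, limma adjusted p = 0.761).

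Of the 10 recognition genes, 5 had mutant values above all controls, beside 6.59% of all gene rows. Another 2 had mutant values below all controls, beside 7.29%, and 0 of the 10 passed at an adjusted p of 0.05. The median of their differences was 0.25. The smallest adjusted p of any member belonged to lectin-24A, which encodes a C-type lectin, a sugar-binding protein. It was 3.53, 4.16 and 4.38 in mutant replicates 1, 2 and 3, against 5.77, 5.70 and 5.31 in control replicates 1, 2 and 3. The nearest values of the groups were 0.93 apart, the widest gap of any member, and the difference was -1.57 (SE 0.25, 95% interval -2.17 to -0.96, limma adjusted p = 0.205). Without mutant replicate 2 it was -1.63 with a limma adjusted p of 0.0272, in a fit where 7.91% of all gene rows were called lower. Its mean over the 6 arrays is among the dimmest 25% of gene rows, so the size of the difference is approximate.

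A marker of lamellocytes, the blood cells that encapsulate parasites, also had mutant values below all controls. This marker, PPO3, had the smallest adjusted p of the 15 blood cell markers measured. Among the controls it was lowest in replicate 1, where lectin-24A was highest. PPO3 was 5.02, 4.91 and 5.06 in mutant replicates 1, 2 and 3, against 6.29, 7.52 and 7.21 in control replicates 1, 2 and 3 (difference -2.01, SE 0.31, limma adjusted p = 0.20, and 0.027 without mutant replicate 2). He, a marker of blood cells in general, had overlapping groups (difference -0.83, SE 0.53, limma adjusted p = 0.653), but without mutant replicate 2 it was also called lower (-1.40, limma adjusted p = 0.0485). That fit called 2 of 15 blood cell markers lower, beside 7.91% of all gene rows. Of 15 measured, 7 had a difference above 0 and 8 below. PPO3 alone had groups without overlap, where 7.29% of all gene rows had mutant values below all controls. Apart from PPO3 and He, the differences lay between -0.45 for Sr-CI and 0.50 for srp. The log2 of the summed signal of the 15 was 12.72 to 13.04 in mutant arrays, against 12.73 to 13.10 in control arrays. Of these markers lz was among the dimmest 25% of gene rows. The part of blood cells in the lectin-24A value was not tested.

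PGRP proteins bind bacterial peptidoglycan, and their genes went both ways. PGRP-SB1, which encodes a secreted amidase, was 7.10, 7.21 and 6.66 in mutant replicates 1, 2 and 3, against 8.21, 7.45 and 8.38 in control replicates 1, 2 and 3. All mutant values were below all control values, by 0.24 at the nearest, and the difference was -1.03 (SE 0.28, 95% interval -1.70 to -0.35, limma adjusted p = 0.42). Its direct neighbour on 3L in the RefSeq gene order, PGRP-SB2, had the opposite sign. PGRP-SB2 was 5.02, 5.72 and 5.02 in mutant replicates 1, 2 and 3, against 4.49, 4.70 and 4.67 in control replicates 1, 2 and 3 (difference 0.63, SE 0.22, limma adjusted p = 0.535). PGRP-SB2 was among the dimmest 25% of gene rows, and mutant replicate 2 raised its mean, since the difference was 0.40 without that array.

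PGRP-LB and PGRP-SC2 encode amidases that dampen the Imd pathway, mainly in the gut. PGRP-LB was 8.32, 7.77 and 8.15 in mutant replicates 1, 2 and 3, against 7.24, 7.65 and 7.74 in control replicates 1, 2 and 3. PGRP-SC2 was 11.57, 11.22 and 11.22 in mutant replicates 1, 2 and 3, against 10.72, 10.98 and 11.18 in control replicates 1, 2 and 3. The groups were apart in both genes, but by 0.02 for PGRP-LB and 0.03 for PGRP-SC2 at the nearest. The differences were 0.53 (SE 0.21, limma adjusted p = 0.57) for PGRP-LB and 0.37 (SE 0.18, limma adjusted p = 0.612) for PGRP-SC2.

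Some midgut markers had higher values in some of the same arrays. Of 11 measured, 9 had a difference above 0 and 2 below (median 0.33). LysP, Mal-A1 and Jon99Ci had mutant values above all control values, beside 6.59% of all gene rows. The lysozyme genes LysP and LysX were listed by name, and whether they mark the midgut was not checked here. The list was mixed, as mex1 and betaTry differed by 0.06, epsilonTry by 0.00 and Jon65Aiv by -0.02. LysX was lower on average (difference -0.81, SE 0.45, limma adjusted p = 0.628). Mal-A1, a maltase gene, was 11.03, 8.84 and 9.83 in mutant replicates 1, 2 and 3, against 6.60, 7.13 and 6.79 in control replicates 1, 2 and 3 (difference 3.06, SE 0.52, limma adjusted p = 0.214, and 0.0094 without mutant replicate 2). The fit without that array called 4 of the 11 higher (Mal-A1, LysP, Jon25Bi and Jon25Bii), beside 2.80% of all gene rows. It called 0 of the 11 lower, beside 7.91% of all gene rows. The log2 of the summed signal of the list was 16.34, 15.94 and 16.10 in mutant replicates 1, 2 and 3, against 15.78, 16.02 and 16.04 in control replicates 1, 2 and 3, and no midgut marker was among the dimmest 25% of gene rows. Mutant replicates 1 and 3, which had the highest midgut sums, also had the highest PGRP-LB, AttD and Def values among the 6 arrays. These genes were picked after their values were seen. PGRP-SC2 did not share this order, being 11.22 in both mutant replicates 2 and 3. The part of gut RNA in these values was not tested.

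PGRP-LA, a regulator of the Imd pathway in epithelia, was 7.86, 8.16 and 7.91 in mutant replicates 1, 2 and 3, against 7.63, 7.42 and 7.80 in control replicates 1, 2 and 3 (difference 0.36, SE 0.16, limma adjusted p = 0.595). PGRP-LF, which encodes an inhibitory receptor of the same pathway, differed by 0.09 (SE 0.22, limma adjusted p = 0.927). PGRP-LE, an intracellular sensor of peptidoglycan, is the single X-linked member. It was 8.39, 8.73 and 8.26 in mutant replicates 1, 2 and 3, against 8.71, 8.87 and 8.97 in control replicates 1, 2 and 3, so that the groups overlapped by a small margin. Its difference was -0.39 (SE 0.17, limma adjusted p = 0.587), where the median over the 777 X-linked gene rows in the brighter 50% was -0.27.

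The GNBP family binds microbial sugars upstream of the Toll pathway. GNBP2 was 7.10, 6.91 and 7.08 in mutant replicates 1, 2 and 3, against 6.60, 6.72 and 6.60 in control replicates 1, 2 and 3. The groups were 0.19 apart with little spread in either, and the difference was 0.39 (SE 0.13, 95% interval 0.08 to 0.69, limma adjusted p = 0.516). GNBP3, the sensor of fungal beta-glucans, had overlapping groups and a difference of 0.14 (SE 0.20, limma adjusted p = 0.868), and its highest value was 9.71 in mutant replicate 2, all remaining arrays lying between 9.05 and 9.23.

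**Figure D3:**
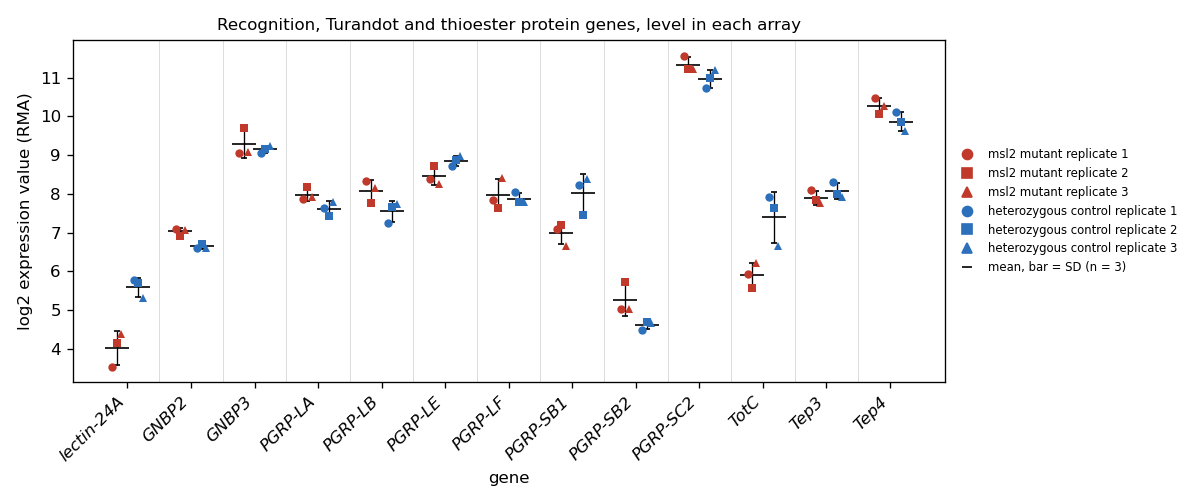
Log2 expression value (y axis) of the 10 recognition genes, TotC, Tep3 and Tep4 (x axis) in each array, mutant arrays in red left of control arrays in blue; marker shapes give the replicate number, and black bars the mean and SD (n = 3). The lectin-24A, PGRP-SB1 and TotC values of the mutants lie below all controls. Those of GNBP2, PGRP-SB2, PGRP-LA, PGRP-LB and PGRP-SC2 lie above all controls, the last 3 by small margins.

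The signalling genes varied little. All 10 were measured, 8 of their differences were above 0 with a median of 0.15, and 0 passed at an adjusted p of 0.05. None spanned 2 log2 units, and the median SD was 0.160 in mutant arrays, against 0.107 in control arrays. In the Imd branch, Rel, which encodes Relish, was 9.98, 9.93 and 9.88 in mutant replicates 1, 2 and 3, against 9.65, 9.68 and 9.52 in control replicates 1, 2 and 3. The groups were 0.19 apart, and the difference of 0.31 (SE 0.13, 95% interval 0.01 to 0.61, limma adjusted p = 0.575) lay between 0.26 and 0.34 with any 1 array left out. The gene of the adaptor imd was 7.27, 7.26 and 7.0 in mutant replicates 1, 2 and 3, against 6.81, 6.89 and 6.99 in control replicates 1, 2 and 3 (difference 0.29, SE 0.14, limma adjusted p = 0.614). Its groups were apart by 0.02. The gene key, for the regulatory subunit of the IκB kinase that acts on Relish, differed by 0.08 (SE 0.20, limma adjusted p = 0.931).

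In the Toll branch the ligand gene spz differed by -0.11 (SE 0.14) and the receptor gene Tl by 0.21 (SE 0.14), with limma adjusted p of 0.837 and 0.67. Of the proteins that act below the receptor, the adaptor gene tub differed by 0.09 (SE 0.20, limma adjusted p = 0.922). The kinase gene pll was 6.39, 6.65 and 6.55 in mutant replicates 1, 2 and 3, against 6.39, 6.15 and 6.22 in control replicates 1, 2 and 3, and the nearest values of the groups were equal to 2 decimals (difference 0.28, SE 0.14, limma adjusted p = 0.614). The inhibitor gene cact differed by -0.06 (SE 0.15, 95% interval -0.41 to 0.30, limma adjusted p = 0.936). The NF-κB gene dl differed by 0.24 (SE 0.25, limma adjusted p = 0.802), a value that rested on mutant replicate 1 at 8.70, as the remaining arrays lay between 7.78 and 8.03 and the difference was -0.04 without it. Dif, the other NF-κB gene of this branch and among the dimmest 25% of gene rows, differed by 0.04 (SE 0.17, limma adjusted p = 0.963). Transcripts of dl, cact and Tl were also measured by a second probe set each, with differences of 0.22, 0.08 and -0.03.

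**Figure D4:**
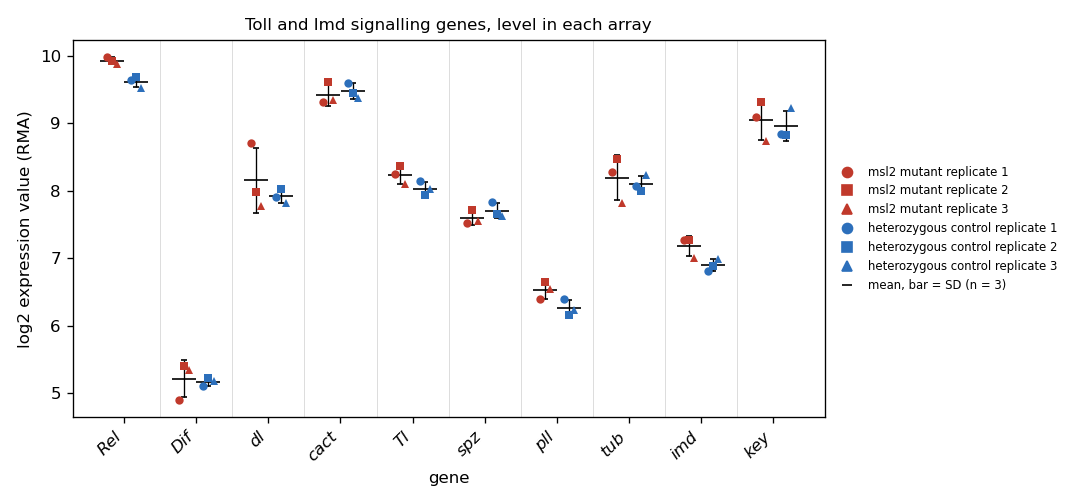
Log2 expression value (y axis) of the 10 signalling genes (x axis) in each array, mutant arrays in red left of control arrays in blue; marker shapes give the replicate number, and black bars the mean and SD (n = 3). The 3 mutant values of Rel, between 9.88 and 9.98, lie above its controls, and the dl value of mutant replicate 1 stands above the other 5 arrays.

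The wider Toll, Imd, JAK-STAT and JNK pathways were also without a call. Of 39 other pathway genes measured, 29 had a difference above 0 and 10 below (median 0.17), and 0 passed at an adjusted p of 0.05. Mutant values lay above all controls in 5, beside 6.59% of all gene rows. They lay below all controls in 2 (SPE and the X-linked Dredd), beside 7.29%. The array medians of their deviations from the mean of all arrays were 0.05, 0.20 and -0.06 in mutant replicates 1, 2 and 3, against 0.03, -0.11 and -0.08 in control replicates 1, 2 and 3, so that mutant replicate 2 held the highest value.

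The genes with the smallest p in this list act at several steps. The X-linked sphe, a serine protease homologue needed for Toll activation by microbes, was 8.10, 8.17 and 7.90 in mutant replicates 1, 2 and 3, against 6.84, 7.30 and 7.32 in control replicates 1, 2 and 3 (difference 0.91, SE 0.18, limma adjusted p = 0.278, and 0.0397 without mutant replicate 2). The fit without that array called 2.80% of all gene rows higher. SPE, the protease that cleaves Spätzle into the active ligand, was 7.29, 6.75 and 6.98 in mutant replicates 1, 2 and 3, against 7.81, 7.69 and 7.42 in control replicates 1, 2 and 3 (difference -0.63, SE 0.19, limma adjusted p = 0.484). Both genes had groups without overlap, in opposite directions. Dredd, the X-linked caspase gene of the Imd branch, was 7.96 to 8.12 in mutant arrays, against 8.32 to 8.43 in control arrays (difference -0.34, SE 0.13, limma adjusted p = 0.555). It belongs to the 777 brighter X-linked gene rows, whose median difference was -0.27. Of these rows, 232 had mutant values below all controls and 8 above. Whether Dredd differed beyond this X-linked background was not tested. For dnr1, whose product restrains Dredd, the difference was 0.86 (SE 0.30, limma adjusted p = 0.532) with overlapping groups. The JNK phosphatase gene puc was 9.15 to 9.34 in mutant arrays, against 8.82 to 8.98 in control arrays (difference 0.35, SE 0.13, limma adjusted p = 0.557). The Toll-family receptor gene 18w differed by 0.65 (SE 0.25, limma adjusted p = 0.557), and its groups overlapped through control replicate 1 at 7.66.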

How the data were processed

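RNA of 6 pools of male larvae was measured, 1 per array. The authors deposited 1 log2 value per probe set and array, made by RMA with background correction, normalization and summarization, per the labels' design text. The submitters' processing notes name GCOS 1.4. The program that ran RMA is one detail not given in the sources used here. RMA makes the arrays' distributions alike and compresses differences of dim probe sets. Arrays have no read depth, and their number limits the precision. The labels call the preparations independent but do not say that they came from separate crosses, so p-values measure the spread between these preparations.

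Of 18952 probe sets, 183 are controls, 13647 carry 1 gene symbol, 402 several and 4720 are unnamed here. Per gene the probe set with the highest mean was used (11983 gene rows). The probe sets of PGRP-LB, Dif, dl, cact and Tl carry the array maker's mark s_at, and those of GNBP2, PGRP-LA and spz the mark a_at. Both marks stand for probes shared by several transcripts. Chromosome arms and gene order are from RefSeq (Release 6 plus ISO1 MT), which held all 34 members. No coordinates are given, since the values name no build.

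Groups were taken from the sample titles, which call the controls wt. They were compared with limma 3.58.1 in R 4.3.3 (lmFit, eBayes, two-sided, Benjamini-Hochberg over all gene rows, threshold 0.05), and the code was tested on simulated data. Plots used matplotlib 3.10.9 in Python 3.11.15. Every measured member could be named. Array values are given for members with an unadjusted p under 0.05, groups without overlap or a range over 2 log2 units, and, of the pathway and effector lists, the 8 genes with the smallest p are named. The members and lists were chosen with earlier results of these data known. The alternatives were each array left out, the replicate number as a block, array weights, the brighter 50% of genes, all probe sets of a gene averaged, quantile normalization, and an intensity trend with a robust prior. A fit over all non-control probe sets was added after seeing the data. No sequences are shown.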

Additional observations from a re-analysis of the deposited data

Results flagged for a closer look

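A probe set outside the 34 gene rows gave a larger difference than any member. Its annotation lists 2 genes of the PGRP family, so it was left out of the gene rows and cannot be assigned to either gene. Its level was 12.99, 11.01 and 12.32 in mutant replicates 1, 2 and 3, against 9.68, 10.13 and 9.15 in control replicates 1, 2 and 3, and the nearest values of the groups were 0.88 apart. The difference was 2.45 (SE 0.50, 95% interval 1.26 to 3.64). In a limma fit over all 18769 non-control probe sets, chosen after seeing the data, its adjusted p was 0.287, and 6 probe sets passed at 0.05. As for AttD, PGRP-LB and the midgut sum, but not for PGRP-SC2, mutant replicates 1 and 3 had the highest values. The part of gut RNA was not tested.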

How the results depend on the processing

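No member passed at an adjusted p of 0.05 with all arrays, nor with the brighter 50% of genes (22 members measured there), all probe sets averaged, quantile normalization, an intensity trend with a robust prior, or a fit over all non-control probe sets. With the replicate block 0 members and 0 gene rows passed. Deviations from the group means correlated at 0.19, -0.27 and 0.11 between same-numbered arrays of the 2 genotypes, against -0.36 to 0.25 between differently numbered ones. So few correlations cannot show whether equal numbers mark a shared batch. Without 1 array, 0 to 1 members were higher and 0 to 1 lower, the calls being AttD and lectin-24A without mutant replicate 2. With array weights, which gave mutant replicate 2 a weight of 0.175 and mutant replicate 3 one of 3.15, 3 members were higher (AttD, GNBP2, PGRP-LB) and 4 lower (TotC, lectin-24A, PGRP-LE, PGRP-SB1). Of the other pathway genes 1 was then higher and 2 lower, and without 1 array 0 to 1 higher. Over all gene rows 0 were higher and 2 lower. With 1 array left out, 0 to 335 were higher and 0 to 948 lower, and with array weights 441 and 1012. With the brighter 50% of genes 0 were lower, and with the trend 1. The cause was not tested.

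The median difference of the peptide genes was -0.013 to 0.16 without 1 array, that of the signalling genes 0.046 to 0.27, and that of the recognition genes 0.14 in the brighter 50% of genes, where 7 remained. Of the 34 members, 20 kept their sign under all alternatives run. The 14 that did not had differences of at most 0.24 in size. With 1 array left out their differences were -0.49 to 0.16 for DptB, -0.034 to 0.34 for CecB, -0.74 to 0.75 for Drs, -0.013 to 0.26 for Drsl1, -0.30 to 0.021 for Drsl3, -0.25 to 0.12 for Drsl4, -1.50 to 0.84 for Drsl5, -0.068 to 0.25 for GNBP3, -0.056 to 0.20 for Dif, -0.038 to 0.42 for dl, -0.15 to 0.0051 for cact, -0.052 to 0.28 for tub, -0.051 to 0.24 for key and -0.13 to 0.26 for PGRP-LF. With array weights they were 0.016 for Drsl3, 0.11 for Drsl4, -0.034 for GNBP3, -0.056 for dl, -0.18 for tub and -0.14 for key. With all probe sets averaged, cact was 0.013. Signal over background limits the dim members lectin-24A, PGRP-SB2, Dif, Drsl1 and Drsl3.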
